A study of Sus scrofa with 6 samples.

Results

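Contractile and stress fibre genes were followed from porcine embryonic fibroblasts (PEFs) to the dox-dependent induced pluripotent stem cells (piPSCs) derived from them. The genes were ACTA2, TAGLN, MYL9, CNN1, TPM1, TPM2, CALD1, MYH9, FLNA and VIM, taken by their symbols from the table of expression values, and all 10 were found among its 18007 genes. The PEF group held the libraries PEF5, PEF7 and PEF8, which were fibroblasts grown from the tip of the ear of E90 embryos (day 90 after mating) of a Large White boar and a Meishan sow. The piPSC group held piPSC5, piPSC7 and piPSC8, each derived from the like-numbered PEF line with lentivirus carrying Oct4, Sox2, Klf4 and cMyc (OSKM) under doxycycline control, in LF2i medium. The piPSC lines were picked colonies that were expanded on mouse embryonic fibroblast feeders, so each line stood for the colonies that grew out, and its state depended on the transgenes. Each line gave 1 poly-A RNA library, so p-values measured the spread between these lines. Values were FPKM, the fragments of a gene scaled by its length and by the fragments of the library. Gene lengths, fragments per gene and library totals were recovered from the FPKM values. The recovered totals were 17836510 (PEF5), 16713472 (PEF7), 15146576 (PEF8), 15050204 (piPSC5), 11892011 (piPSC7) and 11010629 (piPSC8) fragments.

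Stress fibres are bundles of actin filaments and non-muscle myosin II that let a fibroblast pull on its substrate. Myosin II consists of heavy chains, which move along actin, and light chains, whose phosphorylation switches the motor on. Tropomyosins, caldesmon, calponin and transgelin bind along the filament and set how myosin and other proteins reach it, filamin cross-links the filaments, and vimentin forms the intermediate filaments of mesenchymal cells. Many of these genes are targets of serum response factor (SRF) and its cofactors, and several of them, such as ACTA2, CNN1 and TAGLN, are known as markers of smooth muscle and of myofibroblasts.

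The labelled cell types were checked against marker lists. The summed FPKM of 10 fibroblast markers was 4307 (PEF5), 6114 (PEF7) and 4923 (PEF8), against 219 (piPSC5), 129 (piPSC7) and 165 (piPSC8), and the most abundant were the collagen genes COL1A2 in PEFs (mean 1831) and COL3A1 in piPSCs (mean 110). Of these 10 markers, 8 were called lower in piPSCs (limma, defined with the gene results) and 0 higher, beside 16.7% lower and 20.2% higher over all tested genes. FAP and POSTN were not called. FAP was higher in piPSC8 (7.51 FPKM) than in PEF8 (3.11), and POSTN in piPSC5 (2.74) than in PEF5 (1.30). Both were lower in piPSCs in their remaining lines. Smooth muscle markers summed to 68.4, 38.9 and 126 in PEF5, PEF7 and PEF8 and to 23.9, 35.6 and 5.34 in piPSC5, piPSC7 and piPSC8. Of the 6 of them that were tested, SMTN, LMOD1 and MYOCD were called lower and ACTG2, DES and SYNPO2 were not called, beside the same shares. SYNPO2 was at 0.228, 0.238 and 0.252 FPKM in PEFs and at 5.26, 4.14 and 0.376 in piPSCs, with no overlap, while ACTG2 was higher than in the matching PEF line in piPSC5 and piPSC7 and lower in piPSC8. MYH11, the heavy chain that defines smooth muscle, was at most 0.602 FPKM in every library. DES, the intermediate filament of muscle, stood at 14.2 FPKM in piPSC7 and 2.51 in piPSC8, and at no more than 0.416 elsewhere. Of the pericyte markers, PDGFRB was the most abundant (mean 94.9 in PEFs and 2.76 in piPSCs). CSPG4 stood at 24.1, 7.77 and 8.77 FPKM in PEF5, PEF7 and PEF8 and at 1.07, 0.0317 and 0 in the piPSC lines. NOTCH3 was at most 1.74 FPKM, ABCC9 at most 0.297, KCNJ8 at most 0.269 and RGS5 at most 0.0593. Of the 3 tested, PDGFRB and CSPG4 were called lower and NOTCH3 was not called, beside 16.7% lower and 20.2% higher over all tested genes. The summed levels of skeletal muscle markers stayed at or below 0.310 FPKM and those of endothelial markers at or below 2.59. Macrophage markers summed to 10.8, 23.7 and 16.9 in PEFs, mostly CD14, and to 2.53, 1.10 and 3.26 in piPSCs. Chondrocyte markers reached 31.5 in piPSC5, where HAPLN1 was at 30.8, and at most 5.75 elsewhere. Of the 3 tested, SOX9 was called lower and HAPLN1 and MATN3 were not called, beside 16.7% lower and 20.2% higher over all tested genes. SOX9 stood at 2.15, 4.50 and 0.501 FPKM in PEF5, PEF7 and PEF8 and at 0.130, 0 and 0 in the piPSC lines. Keratinocyte markers lay between 4.60 and 11.4 in every library.

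Pluripotency genes differed from each other in piPSCs. SOX2 stood at 3.01, 2.49 and 0.129 FPKM in piPSC5, piPSC7 and piPSC8, against at most 0.0208 in PEFs, and LIN28B at 2.51, 0.281 and 8.90, against at most 0.0367. Every piPSC library was above every PEF library for both genes, neither of which was called. NANOG was listed at 0 in piPSC5 and piPSC8 and at 0.0919 in piPSC7, and POU5F1 at 0, 0.155 and 0.0839. The epithelial genes CDH1 and EPCAM were at most 0.117 FPKM in every library. The markers therefore fitted the fibroblast label of the PEFs, while the defining endogenous pluripotency genes NANOG and POU5F1 were at or near 0 in piPSCs. In these bulk libraries, fewer cells of a type and less RNA per cell cannot be told apart, and the table does not separate fragments of the mouse feeders from those of the porcine cells.

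**Figure D1:**
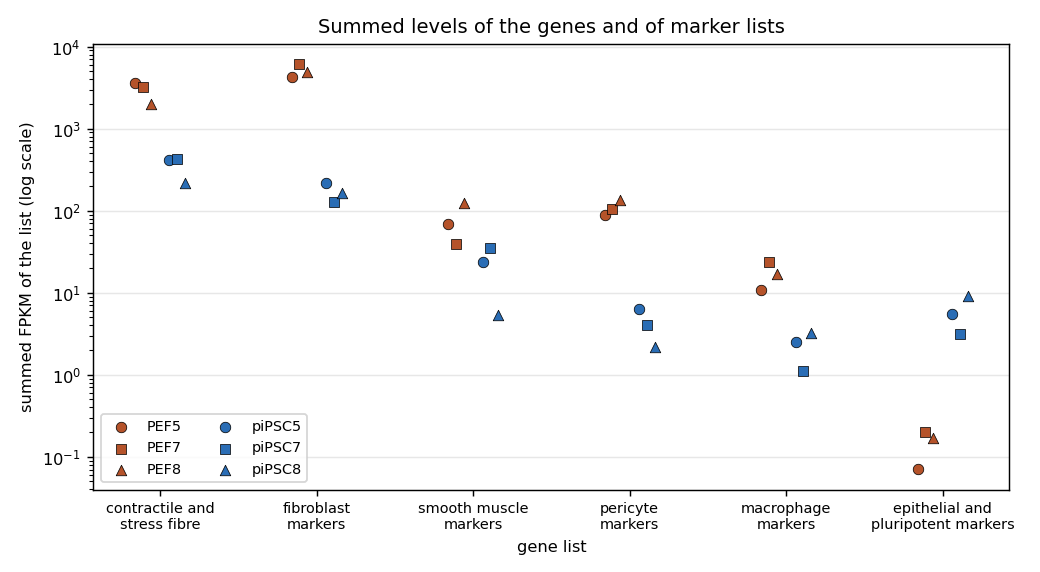
Summed FPKM (log scale) of the 10 contractile and stress fibre genes and of 5 marker lists in each library, with PEF libraries in orange, piPSC libraries in blue and 1 point shape per line. Fibroblast markers lie between 4307 and 6114 in PEFs and between 129 and 219 in piPSCs.

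Line 8 stood apart by sex-linked genes. UTY, a demethylase gene of the Y chromosome, had 77 fragments in PEF8 and 142 in piPSC8, against 0 in PEF5, PEF7 and piPSC7 and 1 in piPSC5. DDX3Y, KDM5D and EIF1AY were read in PEF8 (18, 19 and 6 fragments) and piPSC8 (22, 17 and 5 fragments) and had 0 fragments in the other libraries, although the lines were described as male. Counts of called genes are therefore also given without line 8, an alternative chosen after these values were seen.

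Across the table, 12428 genes had a mean of at least 0.5 FPKM and were tested with limma on log2(FPKM + 1), and a gene was called when its Benjamini-Hochberg adjusted p was below 0.05 and its change reached 2-fold. Of the tested genes, 4575 (36.8%) were called, 2505 of them higher in piPSCs (20.2%) and 2070 lower (16.7%). Of the contractile and stress fibre genes, 9 of 10 passed the filter on low values, and these 9 were all called lower, beside 16.7% of all tested genes. Their median log2 fold change was -3.42, beside 0.20 for all tested genes. Every piPSC library lay below every PEF library for all 10 genes, which held for 26.8% of tested genes (the reverse order held for 37.3%). TAGLN, at a mean of 0.448 FPKM, was not tested.

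Rescaling to the median ratio or to equal sums moved the whole table, whereas quantile normalization left it nearly in place. Over all tested genes, the median log2 fold change went from 0.20 to -0.01 when each library was rescaled to the median ratio and to -0.06 when rescaled to equal sums, and the share of calls that were higher went from 54.8% to 42.8% and 41.4%. With quantile normalization, this median stood at 0.19 and this share at 54.6%. The median of the tested contractile genes, taken relative to that of all genes, was -3.62 as deposited and -3.68 and -3.69 after the rescalings. It was -3.80 with quantile normalization. Without line 8, 4395 genes were called and 9 of the contractile genes remained called lower, with a median of -3.29.

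**Figure D2:**
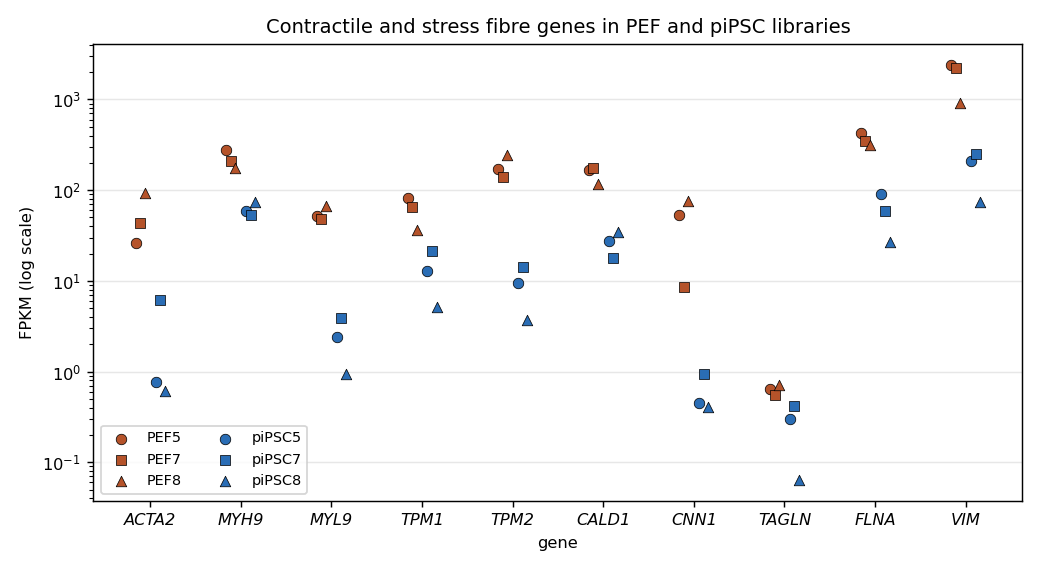
FPKM (log scale) of each contractile and stress fibre gene in the 3 PEF libraries (orange) and the 3 piPSC libraries (blue), with 1 point shape per line. For each gene all piPSC points lie below all PEF points, and TAGLN stays under 1 FPKM in every library.

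ACTA2 (ENSSSCG00000010447, chr14:100865313-100886984, minus strand) encodes smooth muscle alpha-actin, which is built into stress fibres when fibroblasts become contractile. It was at 26.4, 43.1 and 92.8 FPKM in PEF5, PEF7 and PEF8, and at 0.769, 6.14 and 0.612 in piPSC5, piPSC7 and piPSC8. PEF8 was the highest library, piPSC7 stood above the other piPSC lines, and the groups did not overlap. The mean fell from 54.1 ± 34.5 (SD, n = 3) to 2.51 ± 3.15. On the log2 scale the change was -4.15 (SE 0.69, limma with Benjamini-Hochberg adjustment, adjusted p = 0.00344). The level left in piPSCs was 2.91% of the matching PEF line in line 5, 14.2% in line 7 and 0.659% in line 8.

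MYH9 (ENSSSCG00000000145, chr5:11398166-11455054, plus strand) encodes the heavy chain of non-muscle myosin IIA, the main motor of fibroblast stress fibres. Its level was 277, 207 and 176 FPKM in PEF5, PEF7 and PEF8, and 59.1, 53.6 and 73.8 in piPSC5, piPSC7 and piPSC8. PEF8 was the lowest PEF library and piPSC8 the highest piPSC library, and the groups did not overlap. MYH9 fell by 1.79 on the log2 scale (SE 0.22, limma with Benjamini-Hochberg adjustment, adjusted p = 0.00114), and 21.4% to 42.0% of the PEF level was left. MYL9 (ENSSSCG00000036402, chr17:39788171-39799143, plus strand) encodes a regulatory light chain of myosin II that is phosphorylated to start contraction. It was at 52.4, 48.1 and 67.5 FPKM in the PEF lines 5, 7 and 8, and at 2.38, 3.91 and 0.949 in the piPSC lines in the same order. The PEF lines were close to each other, piPSC8 was the lowest, and the groups did not overlap. MYL9 fell by 4.15 on the log2 scale (SE 0.35, limma with Benjamini-Hochberg adjustment, adjusted p = 0.000414), leaving 1.41% to 8.13% of the PEF level.

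The tropomyosins TPM1 and TPM2 form rods along the actin filament that govern the access of myosin. TPM1 (ENSSSCG00000004570, chr1:108985778-109019044, minus strand) was at 82.3, 65.1 and 36.0 FPKM in PEF5, PEF7 and PEF8 and at 12.7, 21.4 and 5.18 in piPSC5, piPSC7 and piPSC8. TPM2 (ENSSSCG00000005316, chr1:236402247-236410905, minus strand) was at 169, 141 and 242 FPKM in the same PEF lines and at 9.40, 14.2 and 3.73 in the piPSC lines. Line 8 was lowest for TPM1 among PEFs and highest for TPM2, whereas piPSC8 was the lowest piPSC library for both, and neither gene overlapped between groups. The log2 fold change was -2.25 for TPM1 (SE 0.52, adjusted p = 0.0116) and -4.31 for TPM2 (SE 0.44, adjusted p = 0.000693) in limma with Benjamini-Hochberg adjustment. The intervals of the 2 genes (95%) ran from -3.48 to -1.02 for TPM1 and from -5.37 to -3.26 for TPM2, and their difference was not tested.

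CALD1 (ENSSSCG00000016535, chr18:14267959-14478503, minus strand) encodes caldesmon, which binds actin and tropomyosin and holds back myosin. It was at 165, 177 and 116 FPKM in PEF5, PEF7 and PEF8 and at 27.3, 17.7 and 34.7 in piPSC5, piPSC7 and piPSC8. The groups did not overlap, and line 8 was the lowest PEF line and the highest piPSC line, as for MYH9. The log2 fold change was -2.50 (SE 0.28, limma with Benjamini-Hochberg adjustment, adjusted p = 0.000932). CNN1 (ENSSSCG00000013614, chr2:70183235-70190758, plus strand) encodes calponin 1, an actin-binding protein of smooth muscle that lowers the activity of myosin. Its level varied between the PEF lines (53.5, 8.59 and 75.1 FPKM for PEF5, PEF7 and PEF8) and was 0.447, 0.943 and 0.407 in piPSC5, piPSC7 and piPSC8. PEF7 was far below the other PEF lines and still above every piPSC line. CNN1 fell by 4.43 on the log2 scale (SE 0.74, limma with Benjamini-Hochberg adjustment, adjusted p = 0.00363), and this was the only call among them that changed with the processing, since limma's voom on recovered fragments gave a larger change of -5.80 with an adjusted p of 0.0532 (range over the alternatives 0.00109 to 0.0532). Its row lies within a gene on the same strand that is listed by identifier only, which was at 0 FPKM in 5 libraries and at 1.64 in piPSC5.

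TAGLN (ENSSSCG00000015073, chr9:44560785-44567385, plus strand) encodes transgelin, an actin-binding protein that is abundant in smooth muscle and in cultured fibroblasts. It was at only 0.648, 0.544 and 0.716 FPKM in PEF5, PEF7 and PEF8 and at 0.302, 0.412 and 0.0636 in piPSC5, piPSC7 and piPSC8, which were 33, 26 and 31 fragments against 13, 14 and 2. The groups did not overlap, every library was below 1 FPKM, and without a filter limma gave a log2 fold change of -0.39 with a Benjamini-Hochberg adjusted p of 0.0692. The PCSK7 row, on the opposite strand, covered 71.4% of the exon bases that RefSeq gives for TAGLN, and PCSK7 was at 6.56 to 9.44 FPKM in all libraries. The library kit did not mark strand, and how fragments shared by these rows were counted is not given in the sources used here, so the low level of TAGLN in this table cannot be read as its level in the cells.

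FLNA (ENSSSCG00000033299, chrX:124889644-124945463, plus strand) encodes filamin A, which cross-links actin filaments and ties them to the membrane. It was at 423, 344 and 311 FPKM in PEF5, PEF7 and PEF8 and at 89.8, 59.3 and 26.7 in piPSC5, piPSC7 and piPSC8. The groups did not overlap, and line 8 was the lowest line in both. The log2 fold change was -2.74 (SE 0.42, limma with Benjamini-Hochberg adjustment, adjusted p = 0.00264). The listed span of FLNA also covers the ribosomal protein gene RPL10, which was at 202 to 382 FPKM in PEFs and 504 to 575 in piPSCs, and how shared fragments were counted is not given in the sources used here. VIM (ENSSSCG00000011033, chr10:43517283-43530623, plus strand) encodes vimentin and was the most abundant of these genes in both groups. It was at 2413, 2196 and 908 FPKM in PEF5, PEF7 and PEF8 and at 208, 249 and 74.4 in piPSC5, piPSC7 and piPSC8. Line 8 was the lowest line in both groups, which did not overlap. The log2 fold change was -3.42 (SE 0.56, limma with Benjamini-Hochberg adjustment, adjusted p = 0.00331), and between 8.19% and 11.3% of the PEF level was left in each line, the narrowest span of the 10 genes.

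Levels per length depend on the gene model. The recovered gene lengths were between 0.775 and 4.07 times the longest RefSeq mRNA (MYH9 and MYL9 at the ends). The order of levels between genes is therefore that of this table. In PEFs the order by mean FPKM was VIM (1839), FLNA (359), MYH9 (220), TPM2 (184), CALD1 (152), TPM1 (61.2), MYL9 (56.0), ACTA2 (54.1), CNN1 (45.7) and TAGLN (0.636). In piPSCs it was VIM (177), MYH9 (62.1), FLNA (58.6), CALD1 (26.6), TPM1 (13.1), TPM2 (9.09), ACTA2 (2.51), MYL9 (2.41), CNN1 (0.599) and TAGLN (0.259). Neighbours in the PEF order overlapped except VIM with FLNA, FLNA with MYH9, CALD1 with TPM1 and CNN1 with TAGLN. In the piPSC order they overlapped except VIM with MYH9 and MYL9 with CNN1. The mean of TPM2 went from above those of CALD1 and TPM1 to below both, and the order was not tested.

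Each piPSC line was also set against its own PEF line, as a ratio of (FPKM + 1) from 1 library to 1 library and with no test. In line 5, 9 of the 10 genes were at least 2-fold lower (18.6% of tested genes) and 9 at least 4-fold lower (8.59%). In line 7, 9 genes were at least 2-fold lower (17.2%) and 7 at least 4-fold lower (7.84%). In line 8, 9 genes were at least 2-fold lower (23.8%) and 7 at least 4-fold lower (12.0%). TAGLN was the exception to the 2-fold count in each line. In line 8 this rested on the pseudocount of 1. There 10 genes were at least 2-fold lower with a pseudocount of 0.1 and after rescaling to equal sums. By FPKM with no pseudocount, TAGLN in piPSC5 was at 46.7% of PEF5, also more than 2-fold lower. The other 9 genes were at least 2-fold lower in all 3 lines, beside 11.9% of tested genes. MYH9 missed the 4-fold threshold in lines 7 and 8, TPM1 in line 7 and CALD1 in line 8.

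The order of the lines was counted within each group. piPSC8 was the lowest piPSC library for 8 of the 10 genes, all but CALD1 and MYH9, beside 42.1% of tested genes. piPSC7 was the highest for 7 of the 10 (ACTA2, TAGLN, MYL9, CNN1, TPM1, TPM2 and VIM), beside 34.9% of tested genes. PEF8 was the highest PEF library for ACTA2, TAGLN, MYL9, CNN1 and TPM2, and the lowest for TPM1, CALD1, MYH9, FLNA and VIM (5 genes each, beside 36.8% and 33.5% of tested genes), so no order was shared by the 10 genes in PEFs. PEF8 and piPSC8 also had the fewest fragments of their groups and were the libraries with Y-linked fragments, and the part of these in the order was not tested.

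**Figure D3:**
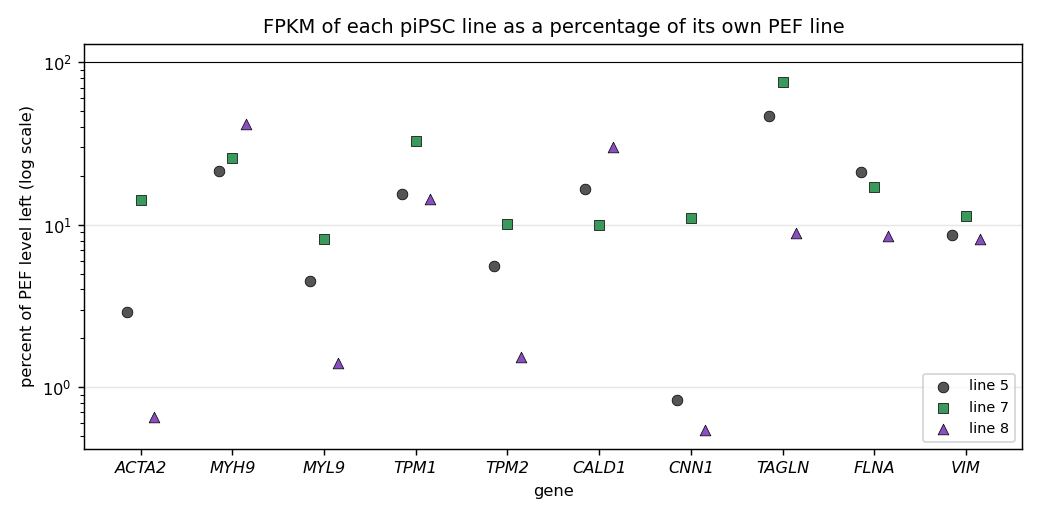
FPKM of each gene in a piPSC line as a percentage of the PEF line of the same number (log scale), with 1 point per line and the level of the PEF line drawn at 100. Line 8 runs from 0.543% (CNN1) to 42.0% (MYH9), and line 7 from 8.13% (MYL9) to 75.7% (TAGLN).

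The share of all expression that the 10 genes held was free of any scaling of a library. Together they took 1.09%, 0.928% and 0.580% of the summed FPKM in PEF5, PEF7 and PEF8, and 0.0975%, 0.0973% and 0.0506% in piPSC5, piPSC7 and piPSC8. The groups did not overlap, and line 8 was the lowest in both. The difference of the means was -0.783 percentage points, of which VIM held the larger part, since it was -0.288 without VIM. Counted as fragments instead of FPKM the difference was -1.79 percentage points.

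Each gene except CALD1 was then set against a relative in the same library, as a log2 ratio of (FPKM + 1). This asks whether the balance within a family differed between the groups. Of 9 ratios, 8 did not overlap between groups. The contractile genes in these ratios were themselves wholly lower in piPSCs, so the ratios were not separate from that result. Among single genes, 26.8% of tested genes lay wholly lower in piPSCs and 37.3% wholly higher, and ratios of other genes were not compared. For each of the 8 ratios the exact permutation test (two-sided) gave p = 0.1, the smallest that 3 lines against 3 allow. No ratio could therefore pass 0.05, and 8 of the 9 ratios are described. With a pseudocount of 0.1, 7 did not overlap, and 9 did not overlap without PEF8 or without piPSC7. The ratio of MYH9 to MYH10, the heavy chain of non-muscle myosin IIB, was 2.55, 2.49 and 2.11 in PEF5, PEF7 and PEF8 and -0.78, -0.40 and -0.01 in piPSC5, piPSC7 and piPSC8. MYH10 itself was at 46.2, 36.1 and 39.9 FPKM in PEFs and 102, 70.8 and 74.3 in piPSCs, so that by FPKM MYH9 was above MYH10 in every PEF line and below it in piPSC5 and piPSC7, with the levels nearly equal in piPSC8. The order in piPSCs depended on the recovered lengths. By fragments MYH9 was above MYH10 in piPSC7 (3751 and 3156) and piPSC8 (4783 and 3068) and below it in piPSC5 (5235 and 5768). The log2 fold change of MYH10 was 0.99 (SE 0.19, limma with Benjamini-Hochberg adjustment, adjusted p = 0.00624), just under the 2-fold threshold, 1.04 with quantile normalization, where it was called, and 0.72 and 0.68 after the rescalings.

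The ratios of the tropomyosins were lower in piPSCs, and TPM4 was above TPM2 in every library. TPM1 to TPM3 had a mean log2 ratio of 0.59 ± 0.25 (SD, n = 3) in PEFs and -2.37 ± 0.96 in piPSCs, and TPM2 to TPM4 of -0.91 ± 0.27 and -4.10 ± 1.29. TPM3 was at 51.5, 37.1 and 28.8 FPKM in PEFs and 60.3, 63.4 and 64.7 in piPSCs and was not called, and TPM4 was called lower with a log2 fold change of -1.12 (SE 0.27, limma with Benjamini-Hochberg adjustment, adjusted p = 0.0142), a call that was lost without piPSC5 (-0.92). CNN1 to CNN3 went from -2.08 ± 1.79 to -6.30 ± 0.16, with CNN3 at 116 to 161 FPKM in PEFs and 108 to 138 in piPSCs. ACTA2 to ACTB, the cytoplasmic beta-actin, went from -4.09 ± 0.85 to -6.70 ± 1.35, and MYL9 to MYL12A from -1.37 ± 0.15 to -3.52 ± 0.68. VIM to KRT18 went from 10.42 ± 1.13 to 7.26 ± 0.90, although KRT18, an epithelial keratin, was at most 0.627 FPKM in every library, so this ratio followed VIM, and the groups overlapped with a pseudocount of 0.1. TAGLN to TAGLN2 overlapped between groups (-6.60 ± 0.68 and -5.62 ± 0.77, exact permutation p = 0.200). Within each line it was higher in piPSCs (-7.19 to -5.68, -6.75 to -6.36 and -5.86 to -4.81 in lines 5, 7 and 8). Its difference between groups went from 0.98 to 0.20 with a pseudocount of 0.1.

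**Figure D4:**
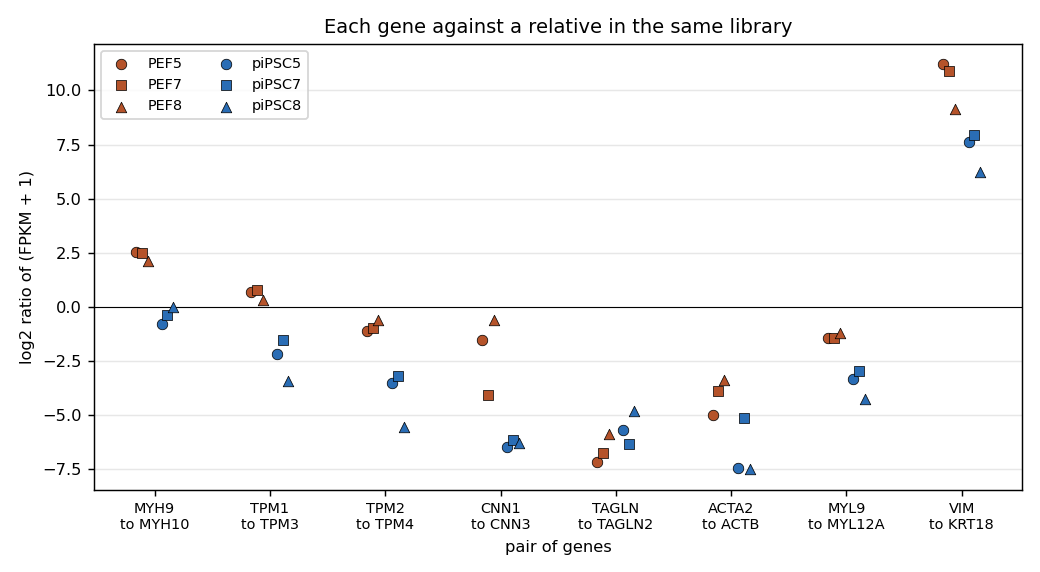
Log2 ratio of (FPKM + 1) of 8 of the genes to a relative in the same library, with PEF libraries in orange, piPSC libraries in blue and 1 point shape per line. MYH9 to MYH10 lies above 0 in the 3 PEF libraries and below 0 in the 3 piPSC libraries, and TAGLN to TAGLN2 overlaps.

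Related cytoskeleton genes were taken from 9 lists. These lists include the smooth muscle markers, so the calls of SMTN, LMOD1 and MYOCD are counted here again. The lists held 102 genes, of which 98 were in the table and 91 were tested. Of the tested genes, 36 were called lower, 6 higher and 49 were not called, with a median log2 fold change of -0.89, beside 16.7% lower, 20.2% higher and a median of 0.20 over all tested genes. After rescaling to the median ratio or to equal sums 44 and 47 were lower and 4 were higher. Among the 6 genes called higher were CIT, PARVB, DIAPH1, DIAPH3 and LMNB1, named here after their values were seen. Of these 5, the call of DIAPH1 was lost under both rescalings and with quantile normalization. Without line 8, 37 were lower and 11 higher, and without piPSC8 10 were higher.

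Of 3 tested actins, ACTB alone was called lower, with 890, 658 and 963 FPKM in PEF5, PEF7 and PEF8 against 306, 251 and 293 in piPSC5, piPSC7 and piPSC8 (log2 fold change -1.55, SE 0.20, limma with Benjamini-Hochberg adjustment, adjusted p = 0.00138). ACTG1, the cytoplasmic gamma-actin and the most abundant actin, was at 2517, 2125 and 1724 FPKM in PEFs and 1123, 1270 and 836 in piPSCs and just missed the 2-fold threshold (log2 fold change -0.98), which it passed with quantile normalization and both rescalings. Of 3 other tested myosin II chains, the light chains MYL6 and MYL12A were called lower and 0 chains higher, beside 16.7% lower and 20.2% higher over all tested genes as for the actins, with log2 fold changes of -1.27 (SE 0.24) and -1.99 (SE 0.14).

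Of 11 tested genes that control the myosin light chain, 3 were lower, 2 higher and 6 not called, beside 16.7% lower and 20.2% higher over all tested genes. MYLK, the kinase that phosphorylates the light chain in response to calcium, was at 13.8, 10.1 and 29.5 FPKM in PEF5, PEF7 and PEF8 and at 0.862, 0.988 and 0.222 in piPSC5, piPSC7 and piPSC8, and the groups did not overlap. Its log2 fold change was -3.37 (SE 0.41, limma with Benjamini-Hochberg adjustment, adjusted p = 0.00119). DAPK3, another kinase of the light chain, fell by 2.76 on the log2 scale (SE 0.15, adjusted p = 0.000165). CIT, a kinase of dividing cells that acts at the cleavage furrow, was among the genes called higher, with a log2 fold change of 1.75 (SE 0.32).

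Of the relatives of tropomyosin, calponin and transgelin, 3 of 10 tested genes were lower and 0 higher, beside 16.7% and 20.2% of all tested genes. The smooth muscle genes SMTN (smoothelin) and LMOD1 (leiomodin, which starts actin filaments) had log2 fold changes of -4.03 (SE 0.43) and -3.38 (SE 0.40), and TPM4 was the third. CNN3 and TAGLN2 were abundant and not called. TAGLN2 stood at 240, 165 and 98.4 FPKM in PEFs and 65.7, 115 and 28.9 in piPSCs, with overlapping groups, and it was called after both rescalings and with the replicate block.

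Of 19 tested cross-linkers and scaffolds of the stress fibre, 11 were lower and 0 higher, beside 16.7% lower and 20.2% higher over all tested genes. PDLIM1, an adaptor that binds alpha-actinin, was at 39.6, 36.4 and 68.9 FPKM in PEF5, PEF7 and PEF8 and at 1.88, 4.35 and 0.313 in piPSC5, piPSC7 and piPSC8, with no overlap (log2 fold change -4.12, SE 0.53, limma with Benjamini-Hochberg adjustment, adjusted p = 0.00136). SYNPO, synaptopodin, fell by 3.73 on the log2 scale (SE 0.40), and ACTN1, the alpha-actinin that bundles filaments at focal adhesions and dense bodies, by 1.73 (SE 0.31). In the focal adhesion plaque, which anchors stress fibres to the matrix through integrins, 10 of 16 genes were lower and 1 higher, beside the same shares. TGFB1I1, the adaptor Hic-5, was at 54.8, 66.8 and 89.3 FPKM in PEFs and 1.36, 3.62 and 1.27 in piPSCs, and its log2 fold change was -4.59 (SE 0.33, limma with Benjamini-Hochberg adjustment, adjusted p = 0.000274). TNS1, a tensin, and ZYX, zyxin, fell by 3.57 (SE 0.39) and 1.52 (SE 0.27), and PARVB, beta-parvin, was the gene called higher, at 18.3, 26.4 and 16.2 FPKM in PEFs and 67.7, 51.9 and 39.5 in piPSCs.

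Of 16 tested genes of actin assembly and turnover, 3 were lower, 2 higher and 11 not called, beside 36.8% called in either direction over all tested genes. The severing protein gelsolin (GSN) was at 87.1, 85.5 and 68.9 FPKM in PEF5, PEF7 and PEF8 and at 7.24, 10.8 and 0.523 in piPSC5, piPSC7 and piPSC8 (log2 fold change -3.94, SE 0.72, limma with Benjamini-Hochberg adjustment, adjusted p = 0.00508). TMSB10, a thymosin that sequesters actin monomers, was called lower at 1989, 2317 and 2562 FPKM in PEFs against 1024, 1125 and 1060 in piPSCs, a call that was lost without line 8, where the change fell just short of 2-fold. The formin DIAPH3 was called higher, from 3.98, 0.331 and 0.998 FPKM to 19.8, 15.1 and 11.9 (log2 fold change 2.78, SE 0.49, limma with Benjamini-Hochberg adjustment, adjusted p = 0.00432). CFL1, cofilin, was at 170 to 214 FPKM in PEFs and 213 to 224 in piPSCs, and the sign of its fold change (0.21) turned under the rescalings (-0.06 and -0.11), with no call in either. ARPC2, a subunit of the Arp2/3 complex, was not called.

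Of SRF and its cofactors, 1 of 6 tested genes was lower and 0 were higher, beside 16.7% and 20.2% of all tested genes. SRF was at 15.8, 15.4 and 17.4 FPKM in PEF5, PEF7 and PEF8 and at 26.9, 18.7 and 28.3 in piPSC5, piPSC7 and piPSC8, so every piPSC library was above every PEF library, and it was not called (log2 fold change 0.56, SE 0.19, limma with Benjamini-Hochberg adjustment, adjusted p = 0.0496, and 0.253 and 0.336 after the rescalings). The cofactor MRTFA was at 10.3, 7.17 and 15.1 FPKM in PEFs and 6.31, 5.32 and 5.17 in piPSCs and was called after both rescalings but not as deposited or with quantile normalization, whereas MRTFB was at 1.79, 1.37 and 2.61 and at 5.02, 5.38 and 3.25 and was not called. MYOCD, myocardin, the cofactor of smooth and cardiac muscle, was at 1.31, 0.489 and 1.66 FPKM in PEFs and 0.0971, 0 and 0 in piPSCs. It was called lower (log2 fold change -1.02, SE 0.29, limma with Benjamini-Hochberg adjustment, adjusted p = 0.0241), but the call was lost with quantile normalization (log2 fold change -0.95) and with any of the piPSC libraries left out, and the gene was below the filter, so not tested, when the filter was raised to 1 FPKM and when PEF5, PEF8 or line 8 was left out. The change was about as large without piPSC5 (-1.06) or piPSC7, with adjusted p of 0.0586 and 0.0544 in limma with Benjamini-Hochberg adjustment. Without piPSC8 the adjusted p was 0.0474 in limma with Benjamini-Hochberg adjustment and the change fell just short of 2-fold. The call stood, with larger changes, after rescaling to equal sums (-1.93), with a pseudocount of 0.1 (-3.18) and with voom (-5.27).

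Among other intermediate filament genes, 2 were lower, 1 higher and 4 not called of 7 tested, beside 36.8% called in either direction over all tested genes. The nuclear lamins moved in opposite directions. LMNA, the A-type lamin, was at 204, 207 and 346 FPKM in PEF5, PEF7 and PEF8 and at 60.2, 82.6 and 62.8 in piPSC5, piPSC7 and piPSC8, while LMNB1, a B-type lamin, was at 23.2, 2.70 and 3.83 in PEFs and 91.2, 68.9 and 98.0 in piPSCs. Neither gene overlapped between groups, and the log2 fold changes were -1.83 (SE 0.25, adjusted p = 0.00179) and 3.51 (SE 0.68, adjusted p = 0.00618) in limma with Benjamini-Hochberg adjustment.

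**Figure D5:**
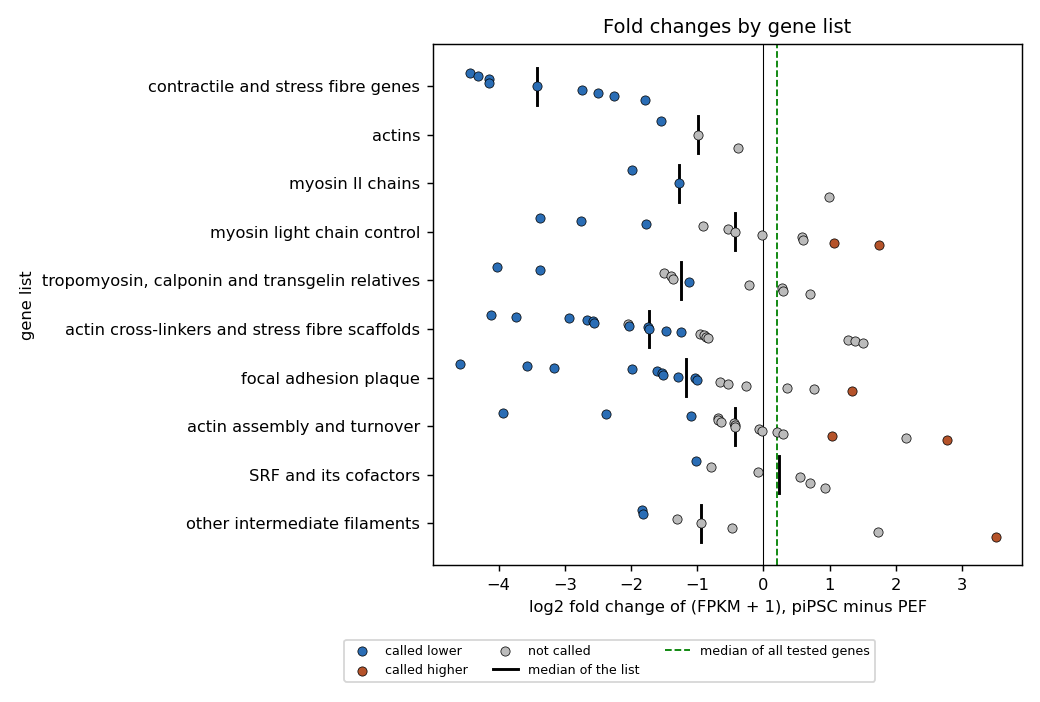
Log2 fold change of (FPKM + 1), piPSC minus PEF, of each tested gene in the contractile and stress fibre genes and in 9 related lists, coloured by its call, with the median of each list as a black bar. The median of all tested genes (0.20) is the dashed line, and the tested contractile genes lie between -4.43 and -1.79.

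Genes with a profile over the 6 libraries like the mean profile of the 10 genes were sought among 11314 tested genes with a symbol. The 10 genes and the related cytoskeleton lists were left out of this search. Distance was the root mean square difference of log2(FPKM + 1), each profile taken relative to its own mean. The closest were BNIP3L (distance 0.12), INAFM2 (0.15), NFIC (0.15), SHB (0.16) and DOK1 (0.16). BNIP3L, a mitophagy receptor, was at 67.2, 66.0 and 67.8 FPKM in PEF5, PEF7 and PEF8 and at 8.35, 10.1 and 4.13 in piPSC5, piPSC7 and piPSC8. The 10 genes themselves lay between 0.39 (FLNA) and 1.32 (TAGLN) from their mean profile.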

How the data were processed

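The authors deposited FPKM per gene for 3 PEF and 3 piPSC lines. The submitters' notes name Sscrofa11.1, HISAT2 2.1.0, Bowtie2 2.2.3 and HTSeq 0.6.0 without their roles. Fragments were recovered with the smallest gene length that gave whole fragments in all 6 libraries (within 0.02 fragments). Such a length was found for 18007 genes. For genes with few fragments, the recovered lengths and fragments are minimum values. Genes with a mean of at least 0.5 FPKM were tested two-sided with limma 3.58.1 in R 4.3.3 (trend, not robust) on log2(FPKM + 1), which understates changes of low genes, with Benjamini-Hochberg adjustment over all tested genes. The lines pair by origin but were not blocked. The paper's statistics section names an unpaired t test, while its expression profiles were compared within matched lines. Deviations from group means correlated at 0.0921, 0.0946 and 0.08 within lines 5, 7 and 8. Between PEF and piPSC lines of different number these correlations were lower, from -0.121 to 0.0553. Other steps used Python 3.11.15. Each related list gave its 2 largest called changes, its most abundant called gene and up to 2 uncalled genes of at least 100 FPKM, not all of which are described. Some list genes, such as MYH10, were matched by identifier or by nucleotide match and position. The genes and lists were chosen with earlier results of these data known. Alternatives were a replicate block, another pseudocount, other filters, 3 scalings, no trend, voom and each library left out.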

Additional observations from a re-analysis of the deposited data

Results flagged for a closer look

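ACTG2, the smooth muscle gamma-actin, differed in direction between the lines. Its log2 ratio of (FPKM + 1) was 1.15 in piPSC5 against PEF5 and 1.64 in piPSC7 against PEF7, but -3.96 in piPSC8 against PEF8. The level was 6.45, 3.70 and 38.6 FPKM in PEF5, PEF7 and PEF8 and 15.5, 13.7 and 1.54 in piPSC5, piPSC7 and piPSC8. TES, the focal adhesion gene testin, had a log2 ratio of 0.51 in line 5, 1.55 in line 7 and -1.01 in line 8. Each ratio compared 1 library with 1, and the difference between the lines was not tested.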

How the results depend on the processing

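Of the 9 tested contractile genes, 8 kept their direction and their call under all 16 other settings, and CNN1 kept its direction under all 16 and its call under 15 (adjusted p from 0.00109 to 0.0532). The replicate block, with 4485 genes called, 36 related genes lower and 6 higher, changed no call of these 9 genes and gave the same median of -3.42. The difference in the share of summed FPKM was -1.79 percentage points as fragments and -0.288 without VIM, and between -0.925 and -0.672 with each library left out. Related genes called higher were 10 with voom and 11 without line 8, and from 4 to 10 with each library left out (10 without piPSC8), and the cause was not tested. The median of the contractile genes ran from -3.75 to -2.80 with each library left out. Leaving out piPSC8 gave -2.80 and let TAGLN pass the filter and enter the median. Adding TAGLN moved it little, since VIM, the middle of the other 9 genes, was at -2.89 without piPSC8. Among single genes, CFL1 turned from 0.21 to -0.06 (median ratio) and -0.11 (equal sums), with no call. The difference between groups in the log2 ratio of TAGLN to TAGLN2 went from 0.98 to 0.20 with a pseudocount of 0.1. Over the tested contractile genes and the related genes named by the fixed rule, 7 rows lost a call and 13 gained one. The alternative without line 8 was added after the values were seen.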
